A study of Mus musculus with 4 samples.

Results

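Haemoglobin and red cell genes were followed in RNA of the frontal cortex of mice given 1 of 4 antipsychotic drugs. The 7 genes were taken by gene symbol from the platform annotation: the adult globins Hba-a1 and Hbb-b2, the embryonic globins Hba-x, Hbb-bh1 and Hbb-y, the erythroid haem synthesis gene Alas2 and the red cell membrane gene Slc4a1. Each has 1 probe, so the genes rest on 7 of 22393 features, and all 7 are among the 16139 genes with a ratio on all 4 arrays, of 16504 genes in all. The phenothiazines chlorpromazine and thioridazine were each given at 25 mg/kg, olanzapine was given at 1.25 mg/kg and quetiapine at 18.75 mg/kg, and each was set against vehicle. All were male ddY mice, an outbred laboratory stock, aged 13 weeks, and injections into the abdominal cavity were given once a day for 28 days. Each drug has 1 dual-colour array on which RNA of drug-injected mice carried cyanine 5 and RNA of vehicle-injected mice cyanine 3, with no dye swap. The number of mice behind an array, whether 1 vehicle RNA served all 4 arrays and whether blood was cleared from the brains are not given in the sources used here.

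Haemoglobin carries oxygen in red cells as a tetramer of alpha-like and beta-like globin chains, each holding a haem group. The embryonic chains are made in the first red cells of the yolk sac and give way to the adult chains before birth. Mature red cells of mammals have no nucleus, and the globin RNA of circulating blood sits mainly in the youngest red cells, the reticulocytes; adult globin transcripts have also been described in neurons and glia. Alas2 makes the erythroid form of the enzyme that starts haem synthesis, and Slc4a1 encodes band 3, the anion exchanger of the red cell membrane. In a piece of bulk tissue, fewer cells of a type and less RNA per cell cannot be told apart.

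Values are log2 ratios, read as drug over vehicle, so that 1 is a 2-fold excess with the drug and -1 a 2-fold deficit. Neither the logarithm's base nor the direction is stated for the deposited table: base 10 and drug over vehicle are the likely reading from the scanner software and the dyes, a base of 2 would make every fold smaller, and a reversed direction would turn every sign. The table holds ratios only. The level of a transcript, its distance from background and the presence of cortical markers could therefore not be checked, and the number of arrays limits the precision. The only measure of error within an array is the spread of the 48 accessions spotted 10 or more times, whose median SD was 0.061 for chlorpromazine, 0.16 for thioridazine, 0.16 for olanzapine and 0.10 for quetiapine.

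Adult globin RNA stood on opposite sides of vehicle under thioridazine and olanzapine. The mean of Hba-a1 and Hbb-b2 was 2.05-fold above vehicle under thioridazine and 3.49-fold below vehicle under olanzapine, and it lay much nearer to vehicle under chlorpromazine (1.20-fold below) and quetiapine (1.22-fold above). Alas2 lay on the same sides as the globins under thioridazine, olanzapine and quetiapine. The embryonic globins and Slc4a1 stayed within 2-fold of vehicle on every array. Each of these statements rests on 1 array per drug, and no drug could be tested alone.

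Hba-a1, which encodes the adult alpha chain, had a log2 ratio of -0.25 under chlorpromazine, 0.91 under thioridazine, -1.87 under olanzapine and 0.18 under quetiapine. Hbb-b2, an adult beta chain, had -0.29 under chlorpromazine, 1.16 under thioridazine, -1.74 under olanzapine and 0.40 under quetiapine. The adult genes therefore had the same sign and the same order on all 4 arrays. Their probes differed (Hba-a1 minus Hbb-b2) by 0.036 under chlorpromazine, -0.24 under thioridazine, -0.13 under olanzapine and -0.22 under quetiapine, which is small beside their range over the drugs of 2.78 for Hba-a1 and 2.89 for Hbb-b2. The alpha genes lie on chromosome 11 and the beta genes on chromosome 7, so the pair are not neighbours in the genome. Near-identical adult copies exist for both chains, and a probe may bind RNA of its gene's copies too. The windows of 300 bases around the starts of Hba-a1 and Hba-a2 share an identical run of 297 bases. Most of each window lies before the start, so this run does not show what the probe binds. Probe and transcript sequences were not compared for either chain. For caution, the Hba-a1 value is read here as adult alpha globin and the Hbb-b2 value as adult beta globin.

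**Figure D1:**
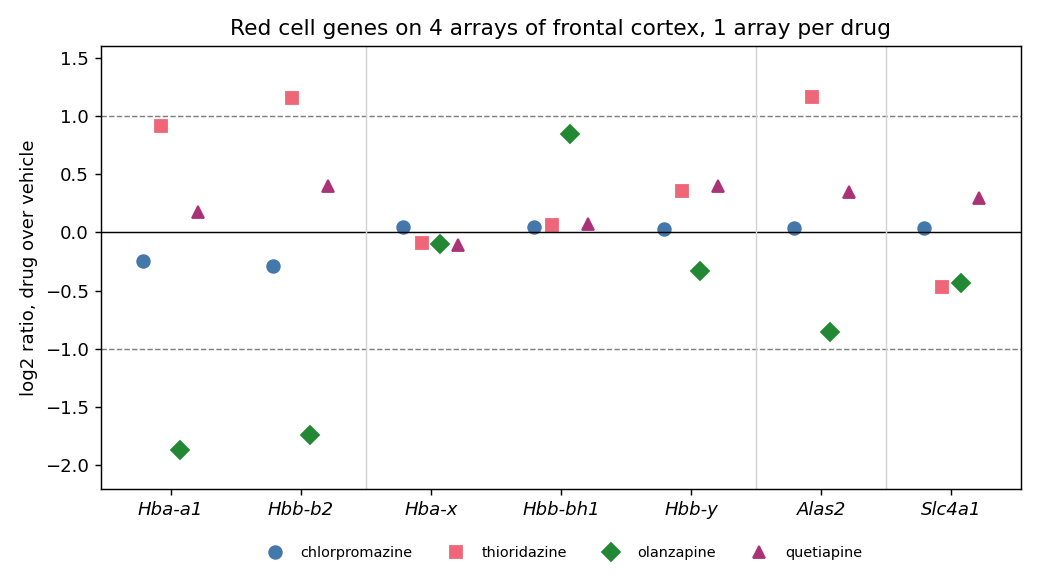
Log2 ratio of drug over vehicle (vertical axis) for each of the 7 genes (horizontal axis), 1 point per drug array; dashed lines mark 2-fold and the solid line vehicle. Olanzapine lies lowest and thioridazine highest for Hba-a1 (-1.87 and 0.91) and for Hbb-b2 (-1.74 and 1.16), with Alas2 in the same order, while Hba-x stays between -0.11 and 0.045.

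Set against all genes on the same array, the adult globin ratios lay towards the ends of the distributions under thioridazine and olanzapine, and well inside them under chlorpromazine and quetiapine. At least as far from 0 as Hba-a1, in either direction, were 28.2% of genes under chlorpromazine, 5.65% under thioridazine, 2.09% under olanzapine and 52.8% under quetiapine. For Hbb-b2 these shares were 23.9%, 3.17%, 2.57% and 23.4% in the same order. Over the 7 genes and 4 arrays, 4 of 28 values were at least 2-fold from vehicle. Hbb-b2 and Alas2 made up the 2 of 7 genes at least 2-fold above vehicle under thioridazine, where 1.98% of all genes were. Hba-a1 and Hbb-b2 made up the 2 of 7 at least 2-fold below vehicle under olanzapine, where 3.33% of all genes were. No member was 2-fold from vehicle in either direction under chlorpromazine, where 1.69% of all genes were, or under quetiapine, where 3.74% were.

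Alas2, whose product condenses glycine and succinyl-CoA in the mitochondria of red cell precursors, had a log2 ratio of 0.036 under chlorpromazine, 1.16 under thioridazine, -0.86 under olanzapine and 0.34 under quetiapine. It matched the adult globin mean closely under thioridazine (Alas2 minus globin mean, 0.12) and quetiapine (0.056). Under olanzapine it was below vehicle but less far than the globins, by 0.95 log2 units. On the chlorpromazine array, where the globins were slightly below vehicle, Alas2 was 0.30 above them. Its range over the drugs was 2.02, a range reached by 2.99% of the 16139 genes, against 0.960% for the range of Hba-a1 and 0.830% for that of Hbb-b2. The median range of all genes was 0.42.

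**Figure D2:**
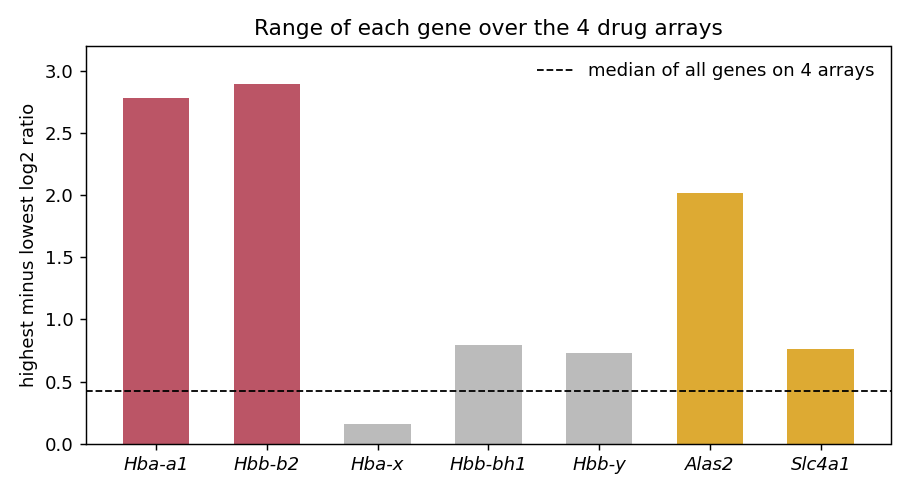
Difference between the highest and the lowest log2 ratio over the 4 drug arrays (vertical axis) for each gene (horizontal axis), with the median of the 16139 genes as a dashed line at 0.42. The adult globins at 2.78 and 2.89 and Alas2 at 2.02 are the tall bars, and Hba-x at 0.16 is below the median of all genes.

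RefSeq promoter sequences were at hand for Hba-a1, Hba-x, Hbb-y and Alas2, that is for 4 of the 7 genes, with none for Hbb-b2, Hbb-bh1 and Slc4a1. They are shown for Hba-a1 and Alas2, which had the same order of drugs, and for Hba-x, the embryonic alpha-like gene, which varied least. Each line gives the 250 bases before the RefSeq start of the gene, 5′ to 3′ on the gene's strand, build GRCm38.p6: chr11:32283422-32283671 (plus strand) for Hba-a1, chrX:150547167-150547416 (plus strand) for Alas2 and chr11:32276350-32276599 (plus strand) for Hba-x. Capitals mark matches on either strand to GATAA, found in sites of the erythroid factor GATA1, and to CACCC, the core of sites bound by the erythroid factor KLF1. In these windows the motifs overlap nowhere.
Hba-a1: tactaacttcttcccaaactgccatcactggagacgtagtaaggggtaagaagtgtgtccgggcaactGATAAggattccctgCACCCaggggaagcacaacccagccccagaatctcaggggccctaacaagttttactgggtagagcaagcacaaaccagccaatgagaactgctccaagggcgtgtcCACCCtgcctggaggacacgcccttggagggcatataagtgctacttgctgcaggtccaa
Alas2: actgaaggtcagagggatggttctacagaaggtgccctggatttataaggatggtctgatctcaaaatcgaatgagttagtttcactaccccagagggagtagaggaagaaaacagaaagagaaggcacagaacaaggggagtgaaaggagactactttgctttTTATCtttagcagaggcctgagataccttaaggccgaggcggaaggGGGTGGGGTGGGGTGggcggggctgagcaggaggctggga
Hba-x: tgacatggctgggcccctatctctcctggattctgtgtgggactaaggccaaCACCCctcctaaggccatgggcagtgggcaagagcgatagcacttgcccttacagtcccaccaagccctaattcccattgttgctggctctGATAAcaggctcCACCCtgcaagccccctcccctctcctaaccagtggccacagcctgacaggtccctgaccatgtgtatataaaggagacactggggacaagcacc
The Hba-a1 window held 1 GATAA match, beginning 182 bases before the start, and CACCC matches beginning 167 and 60 bases before it. The Alas2 window held 1 GATAA match on the opposite strand at 86 bases and CACCC on that strand at 40, 35 and 30 bases. The Hba-x window held a GATAA match at 107 bases and CACCC matches at 198 and 95 bases. Among all 32851 promoter windows of this length, 22.6% held GATAA, 52.0% held CACCC and 10.1% held both; all 4 members with a window held both, the embryonic genes included. A match describes the letters only and says nothing of binding in these samples.

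The embryonic globins showed no common order of drugs. Hba-x, the embryonic alpha-like chain, had log2 ratios of 0.045 under chlorpromazine, -0.089 under thioridazine, -0.099 under olanzapine and -0.11 under quetiapine. Its range of 0.16 was reached or passed by 88.7% of genes, so it was among the steadier genes on these arrays. Hbb-y, an embryonic beta-like chain, had 0.033 under chlorpromazine, 0.36 under thioridazine, -0.33 under olanzapine and 0.40 under quetiapine. Hbb-y thus lay on the adult globins' side of vehicle under thioridazine, olanzapine and quetiapine, at a smaller size than the adult mean under thioridazine and olanzapine. Hbb-bh1, the other embryonic beta-like chain, had 0.044 under chlorpromazine, 0.067 under thioridazine, 0.84 under olanzapine and 0.068 under quetiapine. On the olanzapine array it therefore lay 1.79-fold above vehicle where the adult globins were below, and 10.4% of genes there were at least as far from 0. Of the 12 embryonic values, 11 lay within 0.4 log2 units of vehicle. The adult mean minus the embryonic mean was -0.31 under chlorpromazine, 0.92 under thioridazine, -1.94 under olanzapine and 0.17 under quetiapine.

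Slc4a1 did not share the pattern of the globins. Its log2 ratio was 0.039 under chlorpromazine, -0.47 under thioridazine, -0.44 under olanzapine and 0.30 under quetiapine. Under thioridazine it was thus below vehicle where the adult globin mean was 1.03, and under olanzapine it was 1.37 above the globin mean of -1.80. Under quetiapine it differed from the globin mean by 0.011. At least as far from 0 as Slc4a1 were 19.7% of genes under thioridazine and 25.3% under olanzapine.

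The nearest profiles to the mean of the adult globins were sought over the other 16137 genes by the root mean square difference of the log2 ratios on the 4 arrays, for which the adult genes themselves differed by 0.18 and the median gene lay 1.09 from the globin mean. Cdh15, a cadherin known from muscle, was nearest at 0.28, with ratios of -0.50, 0.79, -1.43 and 0.035 in the order chlorpromazine, thioridazine, olanzapine and quetiapine. Tmem255a followed at 0.40, then the peptide transporter Slc15a2 at 0.40, Hs6st2, an enzyme that modifies heparan sulphate, at 0.46, and Rgs18, a G-protein regulator known from platelets and their precursors, at 0.48. Alas2 was 8th in this order at 0.50, Hbb-y was 341st at 0.83, Slc4a1 3651st, Hba-x 5250th and Hbb-bh1 14777th. These ranks describe 4 values per gene and carry no test.

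The phenothiazines, chlorpromazine and thioridazine, were given at the same dose of 25 mg/kg and differ in the ring substituent and the side chain, which is an open amine chain in chlorpromazine and holds a piperidine ring in thioridazine. Hba-a1 had a log2 ratio of 0.91 under thioridazine against -0.25 under chlorpromazine, a difference of 1.16. The differences (thioridazine minus chlorpromazine) were 1.44 for Hbb-b2 and 1.12 for Alas2. For Slc4a1 the difference was -0.50, for Hbb-y 0.33, for Hba-x -0.13 and for Hbb-bh1 0.023. With 1 array per drug none of these could be tested. Olanzapine and quetiapine, which carry an azepine-type ring, were given at 1.25 and 18.75 mg/kg, so their values stand side by side above and are not compared at a matched dose.

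Whether the drugs shared a change in these genes was tested with limma as the mean log2 ratio over the arrays of all 4 drugs, fitted over 16139 genes with Benjamini-Hochberg adjustment. This fit treats the drugs as repeats of 1 treatment, holds no spread between vehicle mice and keeps any dye bias. Of the 7 genes 0 passed at 0.05, and 0 had an unadjusted limma p under 0.05 either, nor with robust moderation or an ordinary t statistic; of all genes 0.149% passed and 26.2% had such an unadjusted p. Hba-a1 averaged -0.26 (SE 0.46, 95% interval -1.46 to 0.95, limma adjusted p = 0.736), with 2 of 4 arrays below 0. Hbb-b2 had a mean of -0.12 (95% interval -1.37 to 1.14) and Alas2 of 0.17 (95% interval -0.69 to 1.03). For each of these 3 genes the arrays lay on both sides of vehicle. Without the olanzapine array the mean was 0.28 for Hba-a1 and 0.42 for Hbb-b2, and without the thioridazine array that of Alas2 was -0.16, each on the other side of 0. Hba-x, at -0.064 (95% interval -0.22 to 0.090), had the narrowest interval of the 7 genes. The smallest adjusted p was that of Hbb-bh1, which averaged 0.25 (SE 0.16, limma adjusted p = 0.353), with 4 of 4 arrays above 0; without olanzapine its mean was 0.060.

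**Figure D3:**
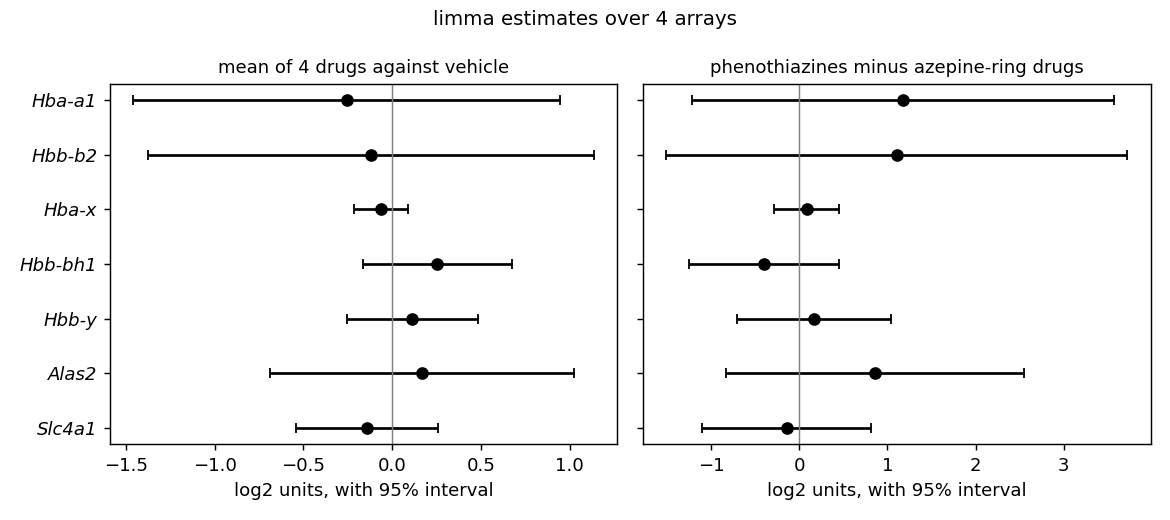
Estimates from limma with 95% intervals for each gene: on the left the mean log2 ratio of the 4 drugs against vehicle, on the right the phenothiazine mean minus the azepine-ring mean. Every interval of both panels spans 0, and those of the adult globins are the widest, reaching from -1.22 to 3.57 for Hba-a1 on the right.

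The chemical classes were compared as the mean of chlorpromazine and thioridazine minus the mean of olanzapine and quetiapine, with doses that differ between the classes. Hba-a1 averaged 0.33 with the phenothiazines and -0.85 with the azepine-ring drugs, a difference of 1.18 (SE 0.85, 95% interval -1.22 to 3.57, limma adjusted p above 0.99). Hbb-b2 averaged 0.43 with the phenothiazines and -0.67 with the azepine-ring drugs, a difference of 1.11 (95% interval -1.51 to 3.72). Alas2 averaged 0.60 with the phenothiazines and -0.26 with the azepine-ring drugs, a difference of 0.86 (95% interval -0.83 to 2.54); leaving out thioridazine gave 0.29, olanzapine 0.26, chlorpromazine 1.42 and quetiapine 1.46. Within each class the arrays differed, since the globin ratios further from vehicle came from thioridazine in one and from olanzapine, below vehicle, in the other. Without olanzapine the difference of Hba-a1 was 0.15 and that of Hbb-b2 0.040, with the lone quetiapine array assumed to vary like the phenothiazines. In this comparison 0 of the 7 genes passed with limma, and 0 reached an unadjusted p of 0.05; over all genes the shares were 0% and 2.84%. The intervals of the adult globins leave room for differences of more than 2-fold in either direction.

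Other genes of red cells and haem were described over 6 lists and a list of further globins, 78 genes measured on all 4 arrays. In the shared change 0 of the 78 passed in either direction with limma, and 18 (23.1%) had an unadjusted p under 0.05, against 26.2% of all genes. In the class comparison 0 of the 78 passed and 3 (3.85%) had such a p, against 2.84% of all genes. The 12 measured haem synthesis genes had medians of -0.11 under chlorpromazine, -0.079 under thioridazine, 0.012 under olanzapine and -0.064 under quetiapine. None was 2-fold from vehicle on any array. Of all genes, 1.69% were that far in either direction under chlorpromazine. The shares were 1.98% above and 2.54% below under thioridazine, 4.64% and 3.33% under olanzapine, and 3.74% in either direction under quetiapine. At such shares a count of 0 in so short a list does not set it apart from other genes. Alas1, the form of the enzyme found in all tissues, had ratios of 0.050, 0.087, 0.24 and 0.19 in the same order, and so did not show the spread of its erythroid relative. The haem exporter Flvcr1 had a mean of -0.31 over the 4 drugs (SE 0.07) and the transporter Abcb6 of -0.21 (SE 0.10). The median of all genes was 0.0073, 0.0059, 0.015 and 0.0066 on the 4 arrays.

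Of the 17 measured genes of the red cell membrane and skeleton, 2 were at least 2-fold below vehicle under thioridazine, where 2.54% of all genes were, and 2 under olanzapine, where 3.33% were. The same genes, Rhd and Epb42, made up both counts. At least 2-fold above vehicle were 1 under thioridazine (Aqp1), 1 under olanzapine (Ermap, at 1.03) and 1 under quetiapine (Aqp1). Ermap is named here after its values were seen. Of all genes 1.98%, 4.64% and 1.43% were that far above on these arrays. Rhd, a blood group protein of the membrane, had log2 ratios of -0.69 under chlorpromazine, -1.61 under thioridazine, -2.49 under olanzapine and 0.062 under quetiapine. Epb42, the membrane protein that binds band 3 and which is named here after its values were seen, had -0.020, -1.01, -1.14 and 0.54 in the same order. Under thioridazine these genes and Slc4a1 lay below vehicle while the adult globins and Alas2 lay above. Rhag, the partner of Rhd in the membrane, was above vehicle on all 4 arrays (0.66, 0.35, 0.89 and 0.99). The water channel Aqp1, made in red cells and in the choroid plexus, had 0.40 under chlorpromazine, 1.82 under thioridazine, -0.22 under olanzapine and 1.05 under quetiapine. The list's medians were 0.029, -0.16, -0.16 and 0.0032.

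Erythroid transcription factors had medians of -0.025 under chlorpromazine, 0.11 under thioridazine, 0.12 under olanzapine and 0.27 under quetiapine over 13 genes. Gata1, the main activator of erythroid genes, had ratios of 0.15, 0.53, 0.63 and 0.76 in this order, averaging 0.52 over the drugs (SE 0.12, limma adjusted p = 0.109). Gata2 had a mean of 0.62 (SE 0.21) and Tal1 of 0.58 (SE 0.20). The list did not rise as a whole: 8 of the 13 means lay above 0 and 5 below, where 51.0% of all genes lay above. The 11 genes of iron uptake and storage had medians of -0.082, 0.0088, -0.11 and -0.088, and none was 2-fold from vehicle on any array. Of all genes, 1.69% were that far in either direction under chlorpromazine. The shares were 1.98% above and 2.54% below under thioridazine, 4.64% and 3.33% under olanzapine, and 3.74% in either direction under quetiapine. At such shares a count of 0 in so short a list does not set it apart from other genes. Ireb2, which senses cellular iron, was below vehicle on all 4 arrays and averaged -0.51 (SE 0.06, limma adjusted p = 0.0653), while the transferrin receptor Tfrc lay on both sides of vehicle (-0.13, 0.23, -0.72 and -0.41, mean -0.26, SE 0.17). Aco1 had a mean of -0.18 (SE 0.08). Of 13 red cell enzymes and cytosolic proteins, which also count Rhd, catalase (Cat) had a mean of 0.45 and the erythroid protein Hemgn of -0.42; the medians were -0.057, -0.095, -0.052 and -0.19.

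Genes that clear haemoglobin and break down haem were led by Hp, haptoglobin, the plasma protein that binds free haemoglobin and rises in the acute phase. Its log2 ratio was 1.22 under chlorpromazine, 1.47 under thioridazine, 0.9999 under olanzapine and 3.49 under quetiapine, averaging 1.80 over the drugs (SE 0.45, limma adjusted p = 0.123). Cd163, the macrophage receptor for haptoglobin bound to haemoglobin, had 0.23, -3.49, 0.54 and 1.37 in the same order. Haem oxygenase 1 (Hmox1), named after its values were seen, had 0.28, 0.23, 0.40 and 0.058, above vehicle on every array. Blvra, which makes bilirubin, had a mean of -0.30 (SE 0.07). The medians of the 9 genes were 0.12, -0.068, 0.036 and 0.013.

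Markers of other blood and vessel cells were set beside the globins, and their part in the globin values was not tested. The 15 neutrophil markers had medians of 0.027 under chlorpromazine, 0.30 under thioridazine, 0.25 under olanzapine and 0.45 under quetiapine, and 0, 3, 2 and 6 of them were at least 2-fold above vehicle in that order, where 0.795%, 1.98%, 4.64% and 1.43% of all genes were. Under olanzapine, where the adult globins were below vehicle, the neutrophil markers were mixed: 9 of 15 lay above 0 and 6 below, with the granule gene Ngp at 3.26 and Mpo, named after its values were seen, the 1 marker at least 2-fold below vehicle at -1.12. Under quetiapine, where S100a9 and S100a8 were at 5.81 and 5.02 and 12 of 15 markers lay above 0, the adult globin mean was 0.29. The 11 platelet markers had medians of 0.016, 0.14, 0.17 and 0.16, with Clec1b at -0.059, 1.22, 1.74 and 0.46. P2ry12 was below vehicle on every array, at -0.36, -0.15, -0.38 and -1.16, and Pf4 was at -0.23, 0.94, 0.25 and 0.77. The 10 lymphocyte markers had medians of 0.13, 0.35, 0.29 and 0.13. The 18 endothelial and pericyte markers had medians of 0.17, 0.17, 0.054 and 0.072; under olanzapine 10 of them lay above 0 and 8 below. Vwf, the clotting factor carrier of endothelium, was at 0.44, 1.32, 1.29 and 0.60, and the glucose transporter Slc2a1 at 0.62, 1.34, 0.48 and 1.75. The receptor Tek was at 0.17, 0.043, 0.12 and -2.31. Abcb1a, an efflux transporter named after its values were seen, was at 0.65, -0.83, -1.19 and 0.40. Under olanzapine the medians of these 4 lists lay above 0, on an array where 52.2% of all genes did. At least 2-fold below vehicle there were 1 neutrophil, 0 platelet, 1 lymphocyte and 1 endothelial or pericyte marker. At least 2-fold above were 2, 2, 2 and 1 in that order. Of all genes on that array 3.33% were at least 2-fold below and 4.64% above. The medians of neuron, astrocyte and oligodendrocyte markers lay between -0.16 and 0.16 on all arrays, but single markers lay far from vehicle under olanzapine. Of 8 astrocyte markers there, Gja1 at 3.59 was at least 2-fold above vehicle and Aqp4 at -1.20 at least 2-fold below. Of 7 oligodendrocyte markers, Olig2 at 2.56 was at least 2-fold above and 0 were below. Of 9 neuron markers, 0 were 2-fold from vehicle.

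**Figure D4:**
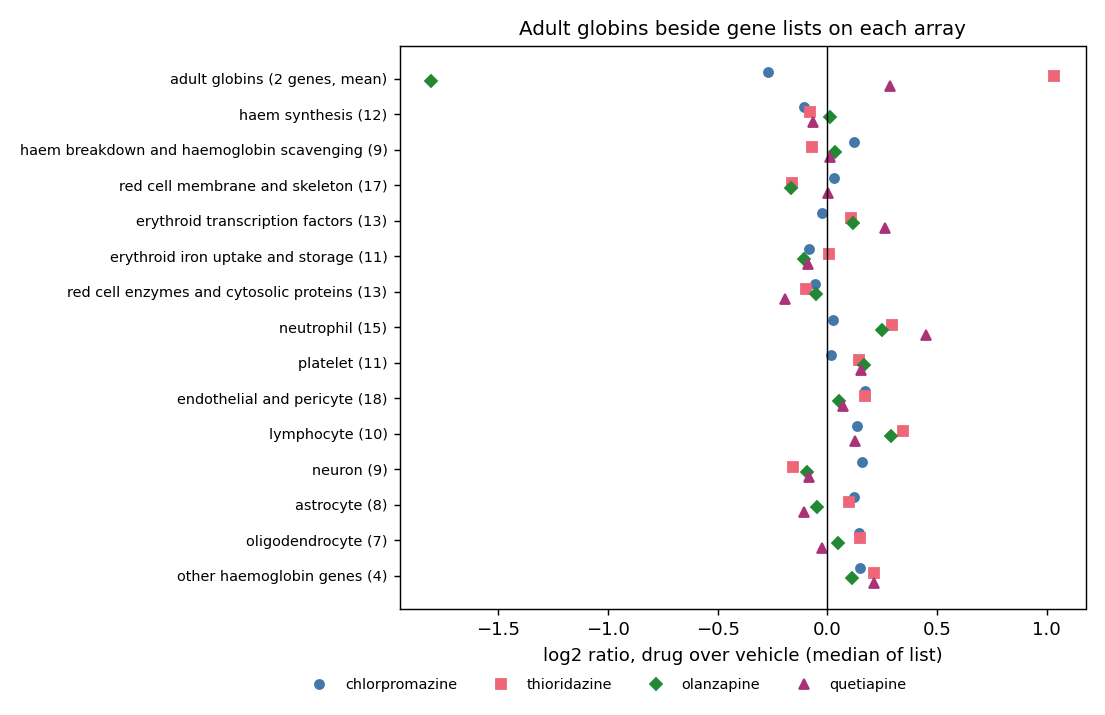
Mean log2 ratio of the adult globins (top row) and median log2 ratio of each gene list (other rows, measured genes in brackets), 1 point per drug array (horizontal axis, drug over vehicle). The adult globins reach from -1.80 under olanzapine to 1.03 under thioridazine, and every list median lies between -0.19 and 0.45.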

How the data were processed

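The deposited table holds 1 value per feature and array, read here as the log10 ratio of the 2 channels. Per the labels, the authors scanned Agilent mouse oligonucleotide arrays, extracted signals with Feature Extraction 7.1 and normalised dyes with a rank consistency filter and LOWESS; scale, direction and centring are unstated. The median deposited log10 value was 0 on 3 arrays and 0.00376 on the olanzapine array. No intensities were used, so dim probes could not be filtered.

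Values of exactly 0 (198 to 594 per array) were taken as missing, ratios were converted to log2, symbols of the platform annotation were updated by Entrez identifier through RefSeq (18175 of 18218 features with 1 symbol; 16 had several and 4159 none), and features of a gene were averaged. Alternatives were zeros kept, another log base, arrays centred or scaled, each feature alone, robust or no moderation, a fold of 1.5 and leaving out 1 array at a time. Tests used limma 3.58.1 in R 4.3.3 on 16139 genes, with Benjamini-Hochberg adjustment. A check on simulated data set a condition only on the size of planted changes that the fit returned, not on false calls. Those data had independent genes and no shared vehicle or dye bias. Nothing in the labels says that arrays are separate animals, and p-values cover only the spread over these 4 arrays, which may be technical in part. The members and lists were chosen with earlier results of these data known. Genes were named from all 7 members, from the 3 genes of each list with the largest absolute mean and any called gene, and from the 5 nearest profiles; others are marked as named after their values were seen.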

Additional observations from a re-analysis of the deposited data

Results flagged for a closer look

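The 4 arrays stand as 1 set in the shared change, and in that set 2 values of the 7 genes lay apart from the other 3 by a gap that, divided by the range, passed the critical value of Dixon's test. Chance flags about 1 in 20 sets of 4 values drawn from a single normal distribution. These arrays differ in drug and in spread over all genes (SD 0.33 under chlorpromazine, 0.59 under olanzapine), so that rate may not hold here. The share of all genes that the same rule flags was not computed, so the count of 2 is not read as a result about these genes. Hbb-bh1 was at 0.84 on the olanzapine array, against 0.044 to 0.068 on the other arrays (gap over range 0.970). Hba-x was at 0.045 on the chlorpromazine array, against -0.11 to -0.089 on the others (gap over range 0.861), within a total range of 0.16. That range is no larger than the median SD of repeated spots on the thioridazine array or the olanzapine array, 0.16 on each. The arrays are of different drugs, so a value apart from the others need not be an error.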

How the results depend on the processing

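No paired analysis was possible because each drug has 1 array and the labels carry no replicate numbers. With zeros kept, arrays centred on the median, arrays scaled to one spread or every feature on its own, the number of the 28 values at least 2-fold from vehicle was 4, as reported. With scaling, Hbb-b2 and Alas2 under thioridazine were only just past that threshold, each at a log2 ratio of 1.03. At a threshold of 1.5-fold the number was 7, and the share of all genes past 1.5-fold was not computed. The number was 0 if the deposited values were log2 already, which shrinks every ratio by construction. In both limma comparisons 0 of the 7 genes passed under every alternative run, those leaving out 1 array included. With 1 array left out, the mean against vehicle ranged from -0.65 to 0.28 for Hba-a1, from -0.54 to 0.42 for Hbb-b2 and from -0.16 to 0.51 for Alas2. The class difference then ranged from 0.15 to 2.20 for Hba-a1, from 0.040 to 2.17 for Hbb-b2, from 0.26 to 1.46 for Alas2, from -0.20 to 0.53 for Hbb-y and from -0.51 to 0.23 for Slc4a1 (0.11 without thioridazine). Under the other settings no estimate of the 7 genes changed sign. Ratios without intensities set the limit: how far any of these genes lay above background is unknown.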

Other observations

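Globins outside the red cell were also measured. Ngb, neuroglobin of neurons, had log2 ratios of 0.21 under chlorpromazine, 0.20 under thioridazine, 0.10 under olanzapine and 0.20 under quetiapine, and Cygb, cytoglobin, had 0.11, 0.23, 0.067 and 0.12 in the same order. Mb, myoglobin of muscle, which is named after its values were seen, had -0.051, -0.034, 0.12 and 0.23. Hbq1a, the theta globin gene next to the adult alpha genes on chromosome 11, had 0.18, 0.31, 0.33 and 0.33, above vehicle on 4 of 4 arrays averaging 0.29 (SE 0.06, limma adjusted p = 0.101). None of these genes passed, and none lay below vehicle under olanzapine, the array on which the adult globins were lowest. The values of Ngb, Cygb and Mb there were smaller than that array's median SD of repeated spots (0.16), so their side of vehicle is uncertain. Of the 12 further globins listed, these 4 were measured.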
